A study of Mus musculus with 3 samples.

Results

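Neocortical RNA was profiled for 7 genes that encode subunits of the pumps that move sodium and calcium out of the cytosol. These were Atp1b1 and Atp1b2 of the sodium pump, Atp2a2 of the endoplasmic reticulum calcium pump, and Atp2b1, Atp2b2, Atp2b3 and Atp2b4 of the plasma membrane calcium pumps. A gene was taken where a probe set carried its symbol and no other in the platform annotation. This gave 1 probe set for each of 6 genes, out of 14938 single-gene probe sets for 14806 genes, and Atp2b1 was not analysed here. The tissue came from 3 wild-type CD1 mice, an outbred stock, at postnatal day 13, with 1 array for each animal. Since no other group was profiled, what can be described is each gene's level and how far the animals differed.

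Both kinds of pump spend ATP to hold ions against steep gradients. The sodium pump exchanges cytosolic sodium for potassium after each action potential and sets the gradient that neurotransmitter transporters use. Its beta subunit is needed for the catalytic alpha subunit to fold and to reach the membrane. Calcium that enters through channels and receptors is returned to the endoplasmic reticulum by SERCA pumps or expelled across the plasma membrane by PMCA pumps, which calmodulin activates.

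Values below are on the log2 scale of intensity, and errors are SDs over the animals (n = 3). As a background for each array, the 95th percentile was taken over 951 probe sets for chemosensory receptors (olfactory, vomeronasal and trace amine), for which no use in cortex was assumed. These limits were 6.86, 6.71 and 6.69 in mice 1, 2 and 3. All 6 measured pump genes exceeded the limit on every array, as did 74.6% of single-gene probe sets. Markers of brain cell types, which do not separate neocortex from other brain regions, were checked: 7 of 7 measured neuronal, 6 of 6 astrocyte, 5 of 5 myelin, 6 of 6 microglial and 6 of 6 endothelial genes were above the limit. So were 6 of 6 genes used as cerebellar markers, 4 of 5 of choroid plexus and 3 of 4 of skeletal muscle. Some of these were close to the limit, as Ckm of muscle, whose lowest value lay 1.17-fold above it. Others were far above it, as Cbln1 of cerebellum (26.7-fold) and Ttr of choroid plexus (84.5-fold). A signal above the limit, even a large one, thus does not by itself place a gene in cortical cells. In tissue RNA, fewer cells of a type and less RNA per cell cannot be told apart. Each probe set has its own brightness, so no pump gene was ranked against another.

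The sodium pump beta subunits were far above background in every animal. Atp1b1, the beta1 subunit found on most neurons (probe set 6763706), was at 13.37, 13.58 and 13.58 in mice 1, 2 and 3. Its mean was 13.51 ± 0.12, and its lowest value lay 91.6-fold above the limit of the same array. Mouse 1 was the low animal and the other two were nearly equal, with a range of 0.21, or 1.16-fold from the lowest to the highest mouse. Atp1b2, the beta2 subunit, first known as an adhesion molecule on glia (probe set 6789316), was at 12.57, 12.53 and 12.68. Its mean was 12.59 ± 0.08 and its range 0.15, or 1.11-fold, with mouse 3 highest. Without mouse 3 that range was 0.04. In the deposited values the 2 beta subunits did not follow the same order of animals, but relative to genes of like level both were highest in mouse 1 and lowest in mouse 2. For Atp1b1 that order rested on small deviations of 0.02, -0.03 and 0.01, against 0.14, -0.17 and 0.03 for Atp1b2. The log2 difference of Atp1b1 minus Atp1b2 departed from its own mean by -0.12, 0.13 and -0.02 in mice 1, 2 and 3, an SD of 0.13.

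Atp2a2 encodes SERCA2, the main calcium pump of the endoplasmic reticulum in brain and also the pump of heart muscle (probe set 6941751). It was at 12.40, 12.70 and 12.68, with a mean of 12.59 ± 0.17. The range was 0.30, or 1.23-fold, and came from mouse 1: without that animal it was 0.024. The same held for Atp1b1, whose range without mouse 1 was 0.0043. Of the 2 other SERCA genes measured, Atp2a1 of fast skeletal muscle was at 7.88 ± 0.13 and Atp2a3 at 7.66 ± 0.39, both above the limit in all mice. Pln and Sln encode phospholamban and sarcolipin, small inhibitors of SERCA pumps in muscle. They were below the limit on all arrays, at 6.42 ± 0.30 and 5.66 ± 0.08.

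Among the plasma membrane calcium pumps, Atp2b3 had the narrowest range over animals and Atp2b4 the widest. Atp2b2, which encodes PMCA2, a fast pump of neurons and of the hair cells of the ear (probe set 6956592), was at 11.84, 11.56 and 11.66 in mice 1, 2 and 3. Its mean was 11.69 ± 0.14 and its range 0.27, or 1.21-fold, with mouse 1 highest. Leaving out mouse 1 brought the range to 0.10. Atp2b3, which encodes PMCA3 and is used mainly in brain (probe set 7011937), was at 11.00, 11.01 and 10.97. Its mean was 10.99 ± 0.019 and its range 0.037, or 1.03-fold. Of the 557 single-gene probe sets in the same bin of level, 0.898% had a smaller range in the deposited values. Without mouse 3 the range of Atp2b3 was 0.010, and over all 3 animals quantile normalization gave a range of 0.21 and median centring of each array 0.12. Atp2b4, which encodes PMCA4, a pump of many tissues that mouse sperm need for motility (probe set 6762321), was at 11.16, 10.89 and 10.58. Its mean was 10.88 ± 0.29, with mouse 1 highest and mouse 3 lowest. The range of 0.59, or 1.50-fold, exceeded that of 93.4% of the 558 probe sets of its level. Without mouse 3 that range was 0.27, and without mouse 1 it was 0.32. Even the lowest values were 28.8-fold above the limit for Atp2b2, 17.6-fold for Atp2b3 and 14.8-fold for Atp2b4.

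**Figure D1:**
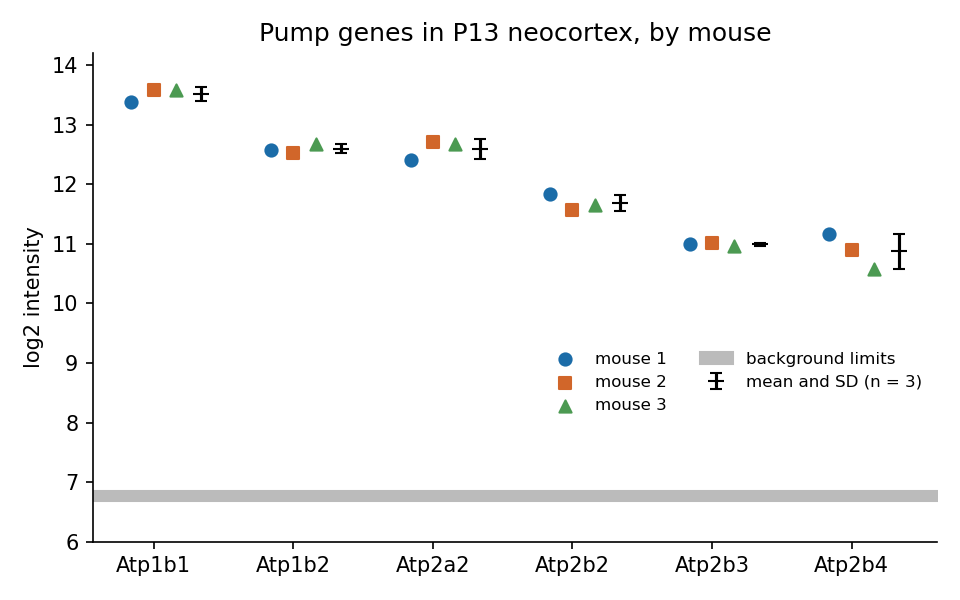
Log2 intensity of the 6 measured pump genes (x axis) in each of the 3 mice, with the mean and SD over mice in black and the background limits of the 3 arrays as a grey band. Every point lies far above the band, Atp2b3 has nearly coincident animals (range 0.037) and Atp2b4 spans 0.59; heights of different genes depend on their probes and are not to be compared.

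No pump gene passed the test for a wider spread over the animals than its level would give. The test, limma's robust model of variances with a trend on level, set each probe set's variance against that of others of like intensity and was adjusted over all 13811 probe sets above the limit. With it 0 of 6 pump genes had a Benjamini-Hochberg adjusted p under 0.05, against 0.0652% of all probe sets tested. At an unadjusted p under 0.05 the counts were 0 of 6, against 5.21%, and the non-robust form of the model gave 0 of 6 at both thresholds. After quantile normalization 2 of 6, Atp2b2 and Atp2b4, had an unadjusted p under 0.05, and without mouse 2 only Atp2b4 did. The share of all probe sets at that threshold was not counted in either setting, so these counts have no background to be set against. Atp2b4 came nearest, with a variance 2.79 times that of the model (adjusted p = 0.98 in limma's model). In the other 8 settings tried its adjusted p lay between 0.876 and 0.991. Atp2b3 had a variance 0.0119 times that of the model, and the other 4 genes lay between 0.198 and 0.972 times. With 3 arrays, missing the threshold does not show that the animals had equal levels.

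**Figure D2:**
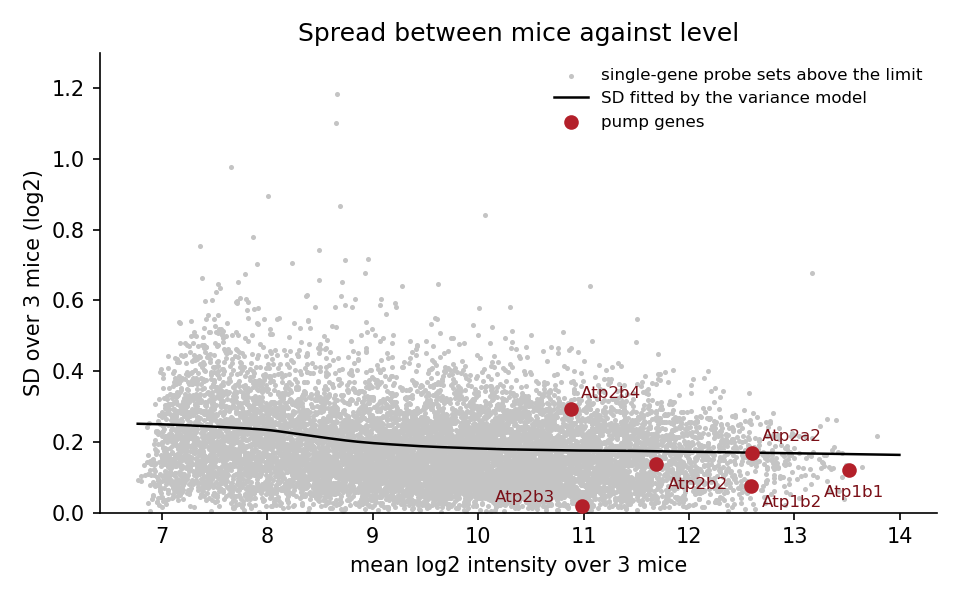
SD over the 3 mice (y axis, log2) against mean log2 intensity (x axis) for all single-gene probe sets above the limit in grey, the pump genes in red and the SD fitted by the variance model as a black line. Atp2b4, with an SD of 0.29, lies above the line but inside the grey cloud, and Atp2b3, with an SD of 0.019, lies at its lower edge.

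The median range over mice was 0.24 for the 6 pump genes and 0.31 for the 11151 single-gene probe sets above the limit. In the bins of level that hold the pump genes, the median range ran from 0.281 to 0.294. Without mouse 1 the median of the pump genes was 0.066. A range over 2 animals cannot exceed that over 3, and the value for all probe sets without mouse 1 was not computed. Mouse 1 was the lowest animal for 2 of 6 pump genes, Atp1b1 and Atp2a2, where it was lowest for 53.4% of single-gene probe sets. It was the highest for Atp2b2 and Atp2b4, where it was highest for 25.5%. Part of this order is shared by bright probe sets at large. In the brightest of 20 bins of level, which holds Atp1b1, Atp1b2 and Atp2a2, the median deviation from the gene mean was -0.16 in mouse 1, 0.10 in mouse 2 and 0.06 in mouse 3.

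With the median deviation of single-gene probe sets of like level taken off, the order of animals changed for 4 genes and held for Atp2b2 and Atp2b4. On this scale Atp1b1 ranged over 0.06 and Atp2a2 over 0.06, so most of their deviation was shared with other genes of their brightness. Atp1b2 ranged over 0.31 and Atp2b3 over 0.22, each more than in the values as deposited. Atp2b2 was at 0.29, -0.24 and -0.05 in mice 1, 2 and 3, a range of 0.54, and Atp2b4 at 0.39, -0.09 and -0.29, a range of 0.68. Mouse 1 was then the highest animal for 5 of 6 pump genes, the exception being Atp2a2, where it was highest for 40.2% of single-gene probe sets. For Atp1b1 mice 1 and 3 were close on this scale, at 0.02 and 0.01. The count of pump genes highest in mouse 1 was 4 after quantile normalization and 2 with each array centred on its median, so it depends on the scaling. The share of all single-gene probe sets highest in mouse 1 was not counted under those 2 scalings. For Atp2b2 and Atp2b4 mouse 1 was highest as deposited, quantile normalized, median centred and relative to genes of like level. Atp2b4 was also lowest in mouse 3 under each of these scalings, and Atp2b2 lowest in mouse 2. A pseudocount of 16 was tried too, but it cannot change the order of animals within a gene.

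**Figure D3:**
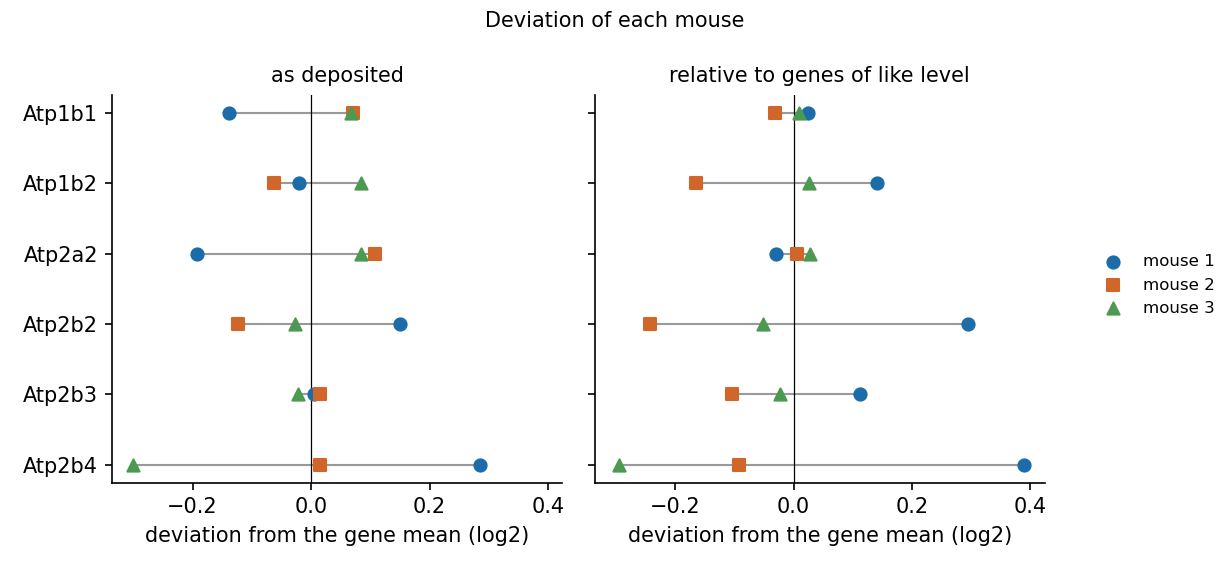
Deviation of each mouse from the gene's own mean (x axis, log2) for the 6 pump genes (rows), in the deposited values on the left and relative to single-gene probe sets of like level on the right. Relative to genes of like level the points of Atp1b1 and Atp2a2 close to ranges of 0.06, while Atp2b2 and Atp2b4 keep mouse 1 highest and widen to 0.54 and 0.68.

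In the deposited values some markers of vessels had the same order of animals as Atp2b4. Of 6 endothelial markers 4 were highest in mouse 1: Pecam1, an adhesion molecule of endothelium, at 9.38, 9.11 and 8.94, Kdr at 10.44, 10.07 and 9.83, Flt1 at 8.81, 8.37 and 8.28, and Tek at 8.56, 8.12 and 8.33. The other 2, Cldn5 and Slc2a1, were lowest in that animal. The median deviation of the list was 0.23, -0.04 and -0.11 in mice 1, 2 and 3, and its summed intensity 6350, 6248 and 6037. Relative to genes of like level the medians were 0.27, -0.14 and -0.09, which is not the order of Atp2b4. On that scale Pecam1 and Kdr kept the order of Atp2b4 and Flt1 did not. Of the 6 mural markers 2 were highest and 2 lowest in mouse 1, with median deviations of -0.02, 0.09 and -0.09. Relative to genes of like level the mural medians were 0.05, -0.001 and -0.07, the order of Atp2b4. Pdgfrb of pericytes was at 9.74, 9.26 and 9.12, while Rgs5, at 11.16, 11.55 and 11.07, and Abcc9, at 8.38, 8.53 and 8.06, were highest in mouse 2. A second probe set of Rgs5, at 10.04, 10.63 and 10.39, was also highest in mouse 2 but lowest in mouse 1. Acta2 of smooth muscle, at 9.17 ± 0.15, was lowest in mouse 1. No marker of either list was at 0. The part of vascular cells in the values of Atp2b4 and Atp2b2 was not tested. The decreasing order from mouse 1 through mouse 2 to mouse 3 was found in 17.4% of single-gene probe sets above the limit, as deposited. That share was not counted relative to genes of like level. Lists without vascular markers had this order too. The proton and potassium pumps had medians of 0.22, 0.10 and -0.34 as deposited. Relative to genes of like level the sodium-calcium exchangers had medians of 0.11, -0.05 and -0.09. The astrocyte list, set beside Atp1b2, had median deviations of -0.15, 0.08 and 0.07 as deposited and did not have the order of Atp1b2. Its summed intensity was 22551, 25405 and 25944. The neuronal list was at -0.10, 0.05 and 0.07, with summed intensities of 41403, 44871 and 45443. Relative to genes of like level the astrocyte medians were -0.01, -0.04 and 0.04, and the neuronal ones 0.05, -0.06 and 0.02. On that scale the neuronal medians had the order of Atp1b2 and the astrocyte medians did not. The endothelial medians had it as well, as did those of the cerebellar markers (0.11, -0.10 and -0.03). The share of single-gene probe sets with that order was not counted.

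Windows before annotated starts of Atp2b4 and Atp2b2, the pump genes with the widest ranges relative to genes of like level, are printed here. They are set beside a window of Atp1b1, whose range on that scale was the narrowest. RefSeq promoter sequences of build GRCm38.p6 matched 4 of the 7 genes, with 7 starts in all. Each sequence below is the 250 bases before a start, read 5′ to 3′ on the gene's own strand. They lie at chr1:164458356-164458605 for Atp1b1, chr6:114042081-114042330 for the outermost of 3 starts of Atp2b2, and chr1:133753748-133753997 for Atp2b4, all on the minus strand. Capitals mark matches on either strand to the GC box GGGCGG, which Sp1-family factors bind. They also mark matches to a TATA-type motif, spelled TATANA with N for any base.
Atp1b1: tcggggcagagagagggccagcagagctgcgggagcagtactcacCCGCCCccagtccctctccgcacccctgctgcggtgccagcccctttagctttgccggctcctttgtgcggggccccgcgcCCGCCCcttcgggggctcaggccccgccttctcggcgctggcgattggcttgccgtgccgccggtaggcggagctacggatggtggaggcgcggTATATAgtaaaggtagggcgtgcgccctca
Atp2b2: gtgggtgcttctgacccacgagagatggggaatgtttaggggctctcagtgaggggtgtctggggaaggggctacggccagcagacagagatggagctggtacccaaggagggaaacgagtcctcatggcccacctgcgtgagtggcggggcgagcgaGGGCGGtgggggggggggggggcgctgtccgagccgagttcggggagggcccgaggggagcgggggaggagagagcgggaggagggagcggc
Atp2b4: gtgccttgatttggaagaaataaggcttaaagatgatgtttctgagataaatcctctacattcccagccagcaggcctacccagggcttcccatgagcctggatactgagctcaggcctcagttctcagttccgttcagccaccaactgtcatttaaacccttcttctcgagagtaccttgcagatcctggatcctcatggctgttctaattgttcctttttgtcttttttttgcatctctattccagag
Atp1b1 held 2 GC box matches and 1 TATA-type match, Atp2b2 held 1 GC box match at this start, and Atp2b4 held neither motif. No match overlapped another. Among all 32851 promoter windows of this length, 32.7% held a GC box match and 22.6% a TATA-type match. The GC content was 70.4% for Atp1b1, 69.6% for Atp2b2 and 45.6% for Atp2b4, against a median of 52.4% over all windows. At the other starts of Atp2b2 it was 55.6% and 52%, with 6 CpG dinucleotides each, and the window at 55.6% held 1 match to each motif. The number of CpG dinucleotides in the printed windows of Atp1b1, Atp2b2 and Atp2b4 was 24, 16 and 2, against a median of 6. Which start was in use in these animals was not measured, so a printed window may not be the promoter used in cortex.

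Other genes of ion pumping and calcium handling were measured in the same RNA. Over 7 lists of 54 genes, 40 were measured and 34 were above the limit in all mice. For each gene the probe set with the highest mean was taken. In limma's variance model 0 of these 34 genes had an adjusted p under 0.05, against 0.0652% of all probe sets tested. At an unadjusted p under 0.05 there were 2 of 34, near the 5.21% of all probe sets tested. The median range over all 40 measured genes, those below the limit included, was 0.34.

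Among the other sodium pump genes 8 of 9 measured were above the limit, and the median range over all 9 was 0.45. Atp1b3, the third common beta subunit, was at 11.35, 11.65 and 11.77 in mice 1, 2 and 3. Atp1b4, a relative of the beta subunits that is mostly a muscle gene in placental mammals, was at 7.43, 6.79 and 6.94, close to the limit. Fxyd1 encodes phospholemman, a small regulator of the sodium pump, and Fxyd2 its gamma subunit of kidney. Fxyd1 was at 10.84, 11.62 and 11.51, a range of 0.78 with mouse 1 lowest, and Fxyd2 at 8.60 ± 0.24. Fxyd1 and Fxyd5, a relative that binds the same pump, were the 2 genes with an unadjusted p under 0.05 on that probe set, and their adjusted p in limma's model was 0.748 and 0.897. Fxyd5 was at 9.31, 10.08 and 9.63. Of the proton and potassium pumps of stomach and colon, Atp4a (7.94 ± 0.27) was above the limit in all mice, and Atp4b (6.85 ± 0.30) and Atp12a (6.99 ± 0.63) were above it in 2.

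The remaining calcium handling genes were mostly above the limit too. Atp2c1, the calcium and manganese pump of the Golgi, was at 11.38, 11.77 and 11.68. Nptn and Bsg, membrane proteins that bind PMCA pumps and stabilise them, were at 12.93 ± 0.19 and 13.33 ± 0.13. Of the sodium-calcium exchangers 8 of 9 were above the limit, the other being Slc24a5 at 6.18 ± 0.25, an exchanger of pigment cells. Slc8a1 was at 10.64 ± 0.09, and its second probe set, at 10.08 ± 0.36, had the larger SD over the same animals. That second probe set also had an unadjusted p under 0.05, with an adjusted p of 0.927 in limma's model. Slc8a2 was at 11.00 ± 0.16, Slc8a3 at 9.33 ± 0.05 and Slc8b1, the mitochondrial exchanger, at 8.35 ± 0.18. All 9 measured genes of calcium release and store-operated entry were above the limit, among them Itpr2 (9.51 ± 0.16), Itpr3 (6.97 ± 0.04), Ryr1 (7.13 ± 0.28) and Ryr2 (10.20 ± 0.03). Itpr3 and Ryr1 were close to the limit, with lowest values 1.11-fold and 1.09-fold above it. The 3 measured genes of mitochondrial calcium handling were Micu2 at 11.41 ± 0.19, Letm1 at 10.65 ± 0.07 and Smdt1 at 12.77 ± 0.26.

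**Figure D4:**
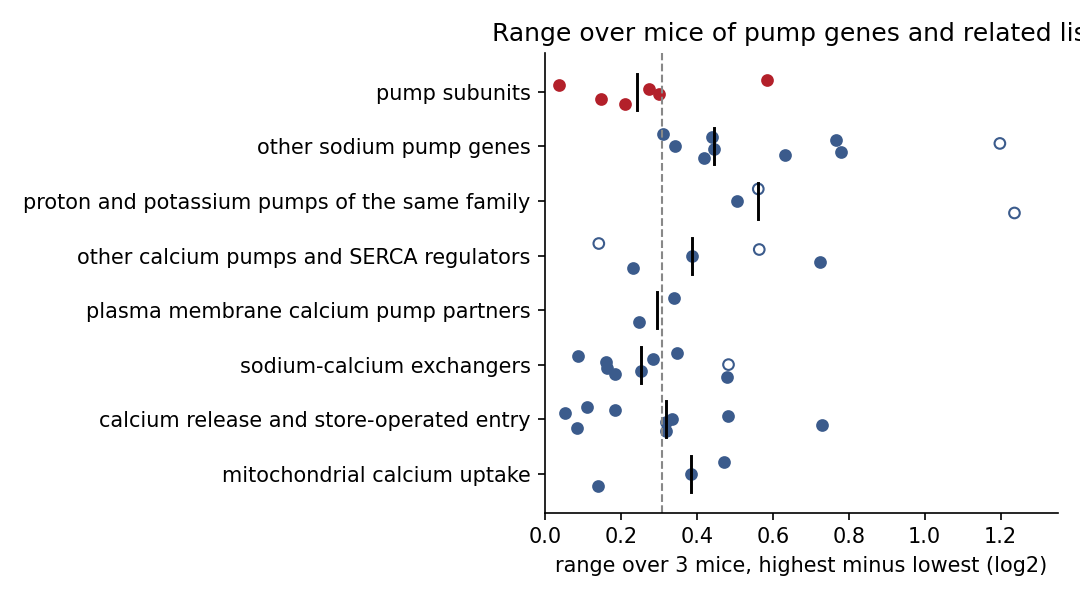
Range over the 3 mice, highest minus lowest (x axis, log2), for each pump gene (red) and each gene of the 7 related lists (blue), with list medians as black bars and the median of single-gene probe sets above the limit, 0.31, as a dashed line. Open points are genes not above the limit in all mice, and the pump genes have a median of 0.24 with Atp2b4 apart at 0.59.

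Likeness between genes was measured as the root mean square difference of their deviations over the 3 mice in the deposited values, a description that so few animals cannot test. Among the pump genes, Atp1b1 and Atp2a2 were nearest to each other (0.04), and Atp1b2 and Atp2b3 likewise (0.08). Atp2b4 was farthest from any other, its nearest being Atp2b2 at 0.19. Of the 40 related genes, the nearest was Bsg for Atp1b1 (0.03), Stim1 for Atp1b2 (0.02), Nptn for Atp2a2 (0.02), Itpr2 for Atp2b2 (0.06), Ryr2 for Atp2b3 (0.0095) and Atp4a for Atp2b4 (0.07). Relative to genes of like level, over the 34 related genes above the limit, the nearest was instead Ryr3 for Atp2a2, Fxyd3 for Atp2b2 and Atp2a3 for Atp2b4. These 3 probe sets and that of Atp4a were dim. Their lowest values lay 1.25-fold above the limit for Ryr3, 2.32-fold for Fxyd3, 1.61-fold for Atp2a3 and 1.93-fold for Atp4a.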

How the data were processed

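Trizol-extracted total RNA was labelled by the Affymetrix whole-transcript sense assay, per the labels' protocols. The authors deposited a linear intensity for every probe set. Affymetrix Power Tools and build mm8 appear in the submitters' processing notes; how background and normalization were handled is not given in the sources used here. Quartiles of the arrays differ, so differences in brightness remain.

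Log2 was taken with no pseudocount. Gene symbols were read from the platform's annotation, and 989 probe sets with several genes and 7245 without one were left unnamed. Excess variance was tested with limma 3.58.1 (fitFDistRobustly with a trend, 21.2 prior degrees of freedom) in R 4.3.3. The code was tried on variances simulated from the fitted model with large changes planted. Such a trial cannot show that the model fits these data, or that smaller changes would be found. Level matching used 20 bins of the mean. Alternatives were leaving out each mouse, other limits, normalizations, a pseudocount of 16 and other forms of the model. The pump genes and the 17 gene lists were chosen with earlier results of these data known. The rule named all pump genes, the first 4 measured genes of each list and the nearest genes; Fxyd5, Sln, Slc24a5, Tek, Slc2a1 and Abcc9 were named after their values were seen, and for marker lists fewer are named. The number of arrays limits precision.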

Additional observations from a re-analysis of the deposited data

How the results depend on the processing

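No paired analysis was possible because the animals form a single group. The 6 measured pump genes stayed above the limit, and 0 of them passed limma's variance test, in all alternatives tried. The number of all probe sets past that test was 9, and it ran from 10 to 26 when 1 mouse was left out, was 2 after quantile normalization and 18 with all probe sets tested. The median range of the pump genes, 0.24, ran from 0.066 to 0.24 when 1 mouse was left out and from 0.24 to 0.32 under the other settings. The alternatives for the order of animals were chosen after the data were seen. Mouse 1 was the lowest animal for 2 pump genes, for 1 after quantile normalization, where Atp1b1 was tied between mice 1 and 3, and for 1 relative to genes of like level. It was the highest for 2, for 4 after quantile normalization and for 5 relative to genes of like level. The share of single-gene probe sets highest in mouse 1 was 25.5% as deposited and 40.2% relative to genes of like level. Such shares were not counted after quantile normalization. The deviation of mouse 1 changed sign for Atp1b1 relative to genes of like level (0.024, against -0.14 as deposited). It did so for Atp1b2 after quantile normalization (0.13) and relative to genes of like level (0.14), against -0.02, and for Atp2b3 with arrays centred on their median (-0.013, against 0.0055). The cause was not tested. Of 36 alternative ranges of single pump genes, 23 stayed within 1 SD of the reported range. All 36 alternative levels stayed within 1 SD of the reported level, but most of them had to. Median centring keeps each gene's mean, and leaving out 1 of 3 animals cannot move a mean by 1 SD.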
